A study of Homo sapiens with 4 samples.

Results

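Proteins bound for the secretory pathway enter the endoplasmic reticulum (ER) through a set of complexes whose transcripts are described here: the signal recognition particle (SRP) and its receptor, the Sec61 channel with its partners Sec62, Sec63, TRAM and TRAP (the translocon-associated protein complex, encoded by the SSR genes), the signal peptidase, and the oligosaccharyltransferase (OST). The 34 genes were taken by symbol from a deposited table of 57820 genes, and all 34 were found and passed the filter of a mean of at least 1 TPM, a level scaled for transcript length and for the total of the library. The libraries came from 786-0, an established human renal carcinoma cell line, and all cells had been starved of amino acids for 12 h. In the tested libraries the cells carried a short hairpin RNA against GLUD1 (shGLUD1), the mitochondrial glutamate dehydrogenase, and in the control libraries a non-targeting hairpin (shNT), with 2 libraries each. The labels do not say whether 1 or several hairpins or clones were used, or whether libraries of a group came from separate cultures, so a p-value here speaks of the spread among these 4 libraries, which may be technical. No cells kept in full medium were compared.

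SRP binds the signal sequence of a nascent chain on the ribosome, pauses its elongation and docks at the SRP receptor on the ER. The ribosome then passes the chain to Sec61, signal peptidase removes the signal sequence, and OST attaches a preassembled N-glycan to asparagines as they emerge. OST works in a cotranslational form built on STT3A and in a form built on STT3B that acts on sites the first has skipped. Several of these complexes combine large catalytic, pore or scaffold subunits with very small membrane or RNA-binding subunits. The members were therefore also split by protein length: 15 had under 250 residues (68 for SEC61G to 226 for SPCS2) and 19 had more (271 for SRPRB to 826 for STT3B).

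Genes of ER protein entry are known targets of the unfolded protein response, so promoters are shown for 3 members that carry the same response element. They were picked because they took 3 different courses on TPM in the limma test below. On the rescaled values explained below, SRP19 (-0.66) and SSR4 (-1.33) were both called lower in shGLUD1, and SEC62 (0.49) was not called. RefSeq promoters on GRCh38.p14, from 250 bases before to 50 bases after a transcript start, were found by symbol for 28 of the 34 genes (36 windows). The letters TGACGTGG, an element bound by XBP1 and ATF6, were searched on both strands and occurred in 4 of the 28 genes (14.3%), SEC62, SRP19, SSR3 and SSR4, against 0.729% of all 35116 promoter windows. Since a gene with several windows has more chances of a match, the shares are not on the same footing. Capitals mark the match, which in all 4 genes was written CCACGTCA on the strand of the gene.
SSR4 (chrX:153794418-153794717, plus strand, 1 of 2 windows listed): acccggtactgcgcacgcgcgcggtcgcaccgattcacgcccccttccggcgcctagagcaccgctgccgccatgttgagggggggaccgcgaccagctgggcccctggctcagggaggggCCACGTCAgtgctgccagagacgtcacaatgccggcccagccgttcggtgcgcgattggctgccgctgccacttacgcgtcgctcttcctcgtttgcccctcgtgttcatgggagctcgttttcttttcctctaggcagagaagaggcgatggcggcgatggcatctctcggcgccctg
SEC62 (chr3:169966557-169966856, plus strand): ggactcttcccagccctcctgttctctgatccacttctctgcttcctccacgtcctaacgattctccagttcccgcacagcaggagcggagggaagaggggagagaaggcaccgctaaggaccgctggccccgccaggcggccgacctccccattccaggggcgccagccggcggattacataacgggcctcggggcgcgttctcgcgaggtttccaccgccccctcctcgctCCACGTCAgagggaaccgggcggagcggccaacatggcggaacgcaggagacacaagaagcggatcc
SRP19 (chr5:112861037-112861336, plus strand): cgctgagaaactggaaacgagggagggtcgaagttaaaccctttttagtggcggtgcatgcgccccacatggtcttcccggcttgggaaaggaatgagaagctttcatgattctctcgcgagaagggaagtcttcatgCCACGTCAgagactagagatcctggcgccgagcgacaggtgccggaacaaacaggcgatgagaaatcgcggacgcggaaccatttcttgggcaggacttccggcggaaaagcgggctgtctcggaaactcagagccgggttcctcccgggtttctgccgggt
In these windows the match began at -129 in SSR4, -17 in SEC62 and -112 in SRP19, counted from the transcript start. The SSR3 match lay in 1 of its 3 windows. The shorter core ACGTGG, which every match above contains, occurred in 10 of the 28 genes (35.7%) against 9.72% of all windows. The ATF4 element TGATGNAA occurred in 1 gene, SRPRB (3.57%, against 3.62% of all windows), and the ER stress element (ERSE) in none (0.0769% of all windows). These are matches of letters and no evidence of binding.

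The targeted gene and the identity of the line were read first. GLUD1 stood at 13.5 and 19.8 TPM under the shGLUD1 label, against 18.1 and 17.4 TPM in the shNT libraries, so the groups overlapped, and shGLUD1 below means libraries labelled so. The line's markers VIM (2902 and 3756 TPM in shGLUD1, 931 and 891 TPM in shNT), KRT8, EPAS1, CAV1 and PAX8 were above 5 TPM in every library. KRT18 lay at 0.66 and 0.82 TPM in shGLUD1 and 1.87 and 1.54 TPM in shNT. The leukocyte marker PTPRC and the hepatocyte marker ALB were at most 0.04 TPM. The muscle marker DES lay at 1.86 and 2.18 TPM in shGLUD1 and 0.52 and 0.75 TPM in shNT, and its part in the results was not tested. Between groups the median of all 12524 genes tested was 0.63 higher in shGLUD1 on the log2(TPM + 1) scale, on which all fold changes below are given. For most genes a rescaled value is therefore given too, computed after median-ratio rescaling, which brings the libraries to a common median ratio.

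Transcripts of many large subunits rose in shGLUD1, whereas those of the small subunits went both ways. In the limma test at an adjusted p under 0.05, 17 of the 34 genes rose, 4 fell and 13 were not called; of all genes tested 64.5% were called, 56.7% higher and 7.77% lower. Of the 19 large members 13 rose (68.4%) and none fell, beside 66.4% higher and 4.07% lower among all 8300 tested genes of proteins this long. Of the 15 small members 4 rose and 4 fell (26.7% each), beside 43.2% higher and 17.3% lower among the 2440 genes of small proteins. The share of large members that rose is thus close to that of large proteins in general. The 4 that fell were SEC61B, SEC61G, SSR4 and SEC11C. The median log2 fold change was 0.95 for large members (0.79 for all large proteins) and 0.09 for small members (0.29 for all small proteins), and the median of the small members became -0.02 without shGLUD1 replicate 2.

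Relative to the median gene the picture moved downward. After rescaling 6 members were higher and 16 lower (23.2% and 27.9% of all genes). Of the small members 1 was higher and 11 lower, beside 11.9% and 49.8% of all small proteins, and of the large members 5 were higher and 5 lower, beside 29.5% and 20.3% of all large proteins. With trends in transcript length and GC content removed, 8 were higher and 14 lower (23.3% and 22.2% of all genes). Of these, 3 and 10 were small, beside 21.2% and 34.8% of all small proteins, and 5 and 4 large, beside 25.0% and 19.1% of all large proteins. Under quantile normalization 11 were higher and 10 lower (23.5% and 22.1% of all genes). The 6 members higher after rescaling were TRAM2, SRP54, SRP68, SSR1, SSR3 and RPN2. On TPM the groups did not overlap in 26 members, 20 with shGLUD1 above and 6 with shGLUD1 below, beside 83.4% of all genes tested (69.9% above and 13.5% below).

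**Figure D1:**
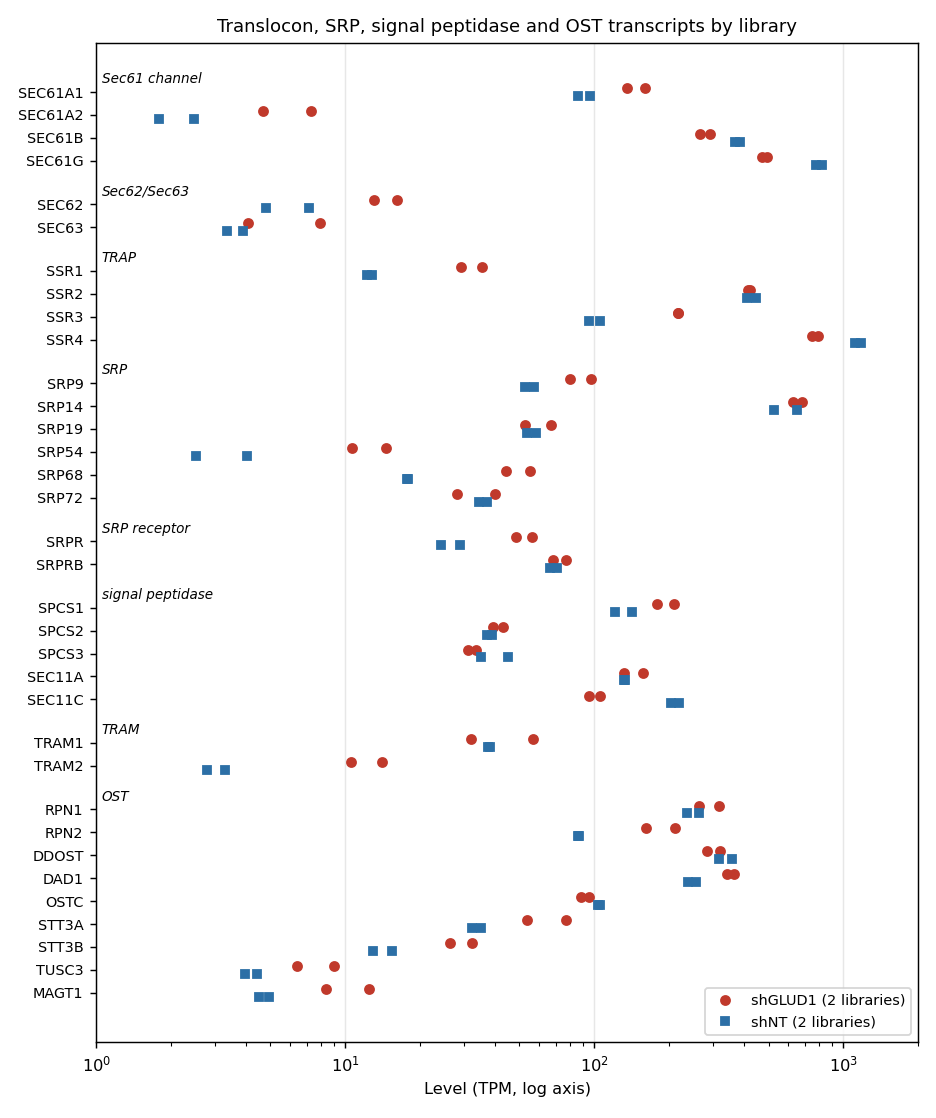
Level of each of the 34 transcripts in each library (TPM, log axis), grouped by complex; circles are the 2 shGLUD1 libraries and squares the 2 shNT libraries. SSR4 had the highest level in all 4 libraries. Both shGLUD1 libraries lay below both shNT libraries in 6 members. These were SEC61G, SEC61B, SSR4 and SEC11C, called lower on TPM, and SPCS3 and OSTC, not called.

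The particle itself was read by its functional parts. SRP54, the GTPase that holds the signal sequence, stood at 10.6 and 14.6 TPM in shGLUD1, against 2.52 and 4.01 TPM in shNT. SRP68, a scaffold subunit, stood at 44.0 and 55.0 TPM in shGLUD1, against 17.6 and 17.8 TPM in shNT. Neither gene had overlapping groups, and both rose, SRP54 by 1.68 log2 units (SE 0.25, limma adjusted p = 0.000221, rescaled 1.03) and SRP68 by 1.43 (SE 0.15, limma adjusted p = 2.87e-05, rescaled 0.69). SRP72, which binds SRP68 in a heterodimer, did not follow it: its levels were 28.1 and 39.9 TPM in shGLUD1, against 37.1 and 34.4 TPM in shNT. The groups overlapped, the change was -0.09 log2 units (SE 0.17, limma adjusted p = 0.649), and the rescaled value of -0.83 was called lower. Whether the changes of SRP68 and SRP72 differ was not tested.

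The small SRP subunits also differed among themselves. SRP9 and SRP14 form the heterodimer at the Alu end of the particle that pauses elongation. SRP9 was at 80.1 and 97.1 TPM in shGLUD1 and 52.9 and 57.3 TPM in shNT, and rose (log2 fold change 0.67, SE 0.13, limma adjusted p = 0.00101), although its rescaled value was -0.08. SRP14 was at 627 and 680.2 TPM in shGLUD1 and 526 and 652 TPM in shNT, with overlapping groups, and was not called on TPM (0.16), while its rescaled value of -0.60 was called lower (limma adjusted p = 0.00872). In shNT the SRP14 level averaged 589 ± 89 TPM and the SRP9 level 55.1 ± 3.1 TPM (SD, n = 2). SRP19, which helps SRP54 onto the RNA and whose promoter is shown above, was at 52.8 and 67.0 TPM in shGLUD1 and 53.7 and 58.3 TPM in shNT, and was not called on TPM (0.09). It was called lower after rescaling (-0.66, limma adjusted p = 0.00204), with quantile scaling (-0.34, 0.0471) and after removal of length and GC trends (-0.69, 0.00152). REEP5, which overlaps SRP19 on the opposite strand, was more abundant, at 92.4 TPM in shGLUD1 and 99.9 TPM in shNT, so the SRP19 level is uncertain.

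The TPM listed for the RNA of the particle moved the other way from those of SRP54 and SRP68. SRP is built on 7SL RNA, a short RNA made by RNA polymerase III, which the table lists as RN7SL1 and RN7SL2. RN7SL1 stood at 91.2 and 99.8 TPM in shGLUD1, against 528 and 583 TPM in shNT. RN7SL2 stood at 115 and 117 TPM in shGLUD1, against 464 and 539 TPM in shNT. Both were far lower in both shGLUD1 libraries: RN7SL1 fell by 2.53 on the log2 scale (SE 0.10, limma adjusted p = 7.68e-08) and RN7SL2 by 2.10 (SE 0.10, limma adjusted p = 3.25e-07), with rescaled values of -3.28 and -2.86. The means were 5.81 and 4.32 times as high in shNT. The genes are near-identical and have many copies in the genome, so the split of reads between them is uncertain. As 7SL has no long poly(A) tail, its TPM may not stand for the level of SRP RNA, which was not tested.

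At the ER membrane the subunits of the SRP receptor differed as well. SRPR, its cytosolic GTPase subunit, was at 48.3 and 56.0 TPM in shGLUD1 and 28.9 and 24.1 TPM in shNT, and rose by 0.95 log2 units (SE 0.14, limma adjusted p = 0.000252, rescaled 0.21 and not called). SRPRB, the membrane-anchored subunit, was at 68.2 and 76.6 TPM in shGLUD1 and 70.9 and 66.1 TPM in shNT. Its groups overlapped and it was not called (0.08, SE 0.12, limma adjusted p = 0.579), with a rescaled value of -0.67 that was called lower. FOXRED1 overlaps SRPR on the opposite strand, at 28 TPM in shGLUD1 and 15.6 TPM in shNT.

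The Sec61 channel showed the opposite course of its large and small subunits. SEC61A1, the alpha subunit that forms the pore, was at 135 and 160.3 TPM in shGLUD1, against 95.7 and 86.0 TPM in shNT. SEC61B, the tail-anchored beta subunit of 96 residues, was at 265 and 291 TPM in shGLUD1, against 368 and 383 TPM in shNT. SEC61G, the gamma subunit of 68 residues that clamps the pore, was at 492 and 469 TPM in shGLUD1, against 779 and 823 TPM in shNT. The groups did not overlap in any of the 3 genes: SEC61A1 was high and SEC61B and SEC61G low in both shGLUD1 libraries. SEC61A1 rose by 0.69 log2 units (SE 0.12, limma adjusted p = 0.000522), SEC61B fell by 0.43 (SE 0.09, limma adjusted p = 0.00221) and SEC61G fell by 0.74 (SE 0.09, limma adjusted p = 5.76e-05). After rescaling SEC61A1 lay at -0.06 and was not called, and SEC61B and SEC61G lay at -1.19 and -1.5 and were called lower. The complex summed to 900 and 925 TPM in shGLUD1 and 1245 and 1293 TPM in shNT.

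SEC61A2, the other alpha subunit, was low, at 7.25 and 4.67 TPM in shGLUD1 and 2.47 and 1.79 TPM in shNT. It rose by 1.14 log2 units (SE 0.26, limma adjusted p = 0.00335, rescaled 0.55), a call lost without a filter on low values (limma adjusted p = 0.0501), after rescaling (0.105), with quantile scaling (0.248) and after removal of length and GC trends (0.201). Its exons overlap those of NUDT5 on the opposite strand, which averaged 105 TPM in shGLUD1 and 40.4 TPM in shNT, so without a stated stranded count its level is uncertain. SEC61A1 likewise shares exonic sequence with RUVBL1 on the opposite strand, at 132 TPM in shGLUD1 and 78.1 TPM in shNT.

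Of 4 partners of the channel, SEC62 and TRAM2 rose on TPM and SEC63 and TRAM1 were not called. SEC62, which acts in post-translational entry of short precursors, was at 13 and 16.1 TPM in shGLUD1, against 4.81 and 7.12 TPM in shNT, and rose by 1.17 log2 units (SE 0.22, limma adjusted p = 0.000975, rescaled 0.49 and not called). SEC63, whose J domain recruits the chaperone BiP, was at 4.07 and 7.90 TPM in shGLUD1 and 3.36 and 3.88 TPM in shNT. It was not called (0.54, SE 0.28, limma adjusted p = 0.112, rescaled -0.08), but was called without shGLUD1 replicate 1 (0.95, limma adjusted p = 0.0139). TRAM2, a paralogue of the translocating chain-associated protein TRAM1, was at 10.5 and 14.0 TPM in shGLUD1, against 3.29 and 2.78 TPM in shNT. It rose by 1.70 (SE 0.22, limma adjusted p = 0.000108, rescaled 1.06), close to the increase of SRP54. TRAM1 was at 31.8 and 56.9 TPM in shGLUD1 and 37.2 and 38.0 TPM in shNT, so the shGLUD1 libraries lay on either side of the controls (0.17, limma adjusted p = 0.491). TRAM1 was called lower after rescaling (-0.57, limma adjusted p = 0.0321) and higher on TPM without shGLUD1 replicate 1 (0.58, limma adjusted p = 0.00882).

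TRAP, which sits beside Sec61 and aids the entry of chains with weak signal sequences, split within the complex. SSR1, its alpha subunit, was at 29.2 and 35.4 TPM in shGLUD1, against 12.2 and 12.8 TPM in shNT. SSR3, the gamma subunit, was at 216 and 217 TPM in shGLUD1, against 95.4 and 106 TPM in shNT. The groups did not overlap and both genes rose, SSR1 by 1.29 log2 units (SE 0.16, limma adjusted p = 7.2e-05, rescaled 0.57) and SSR3 by 1.10 (SE 0.10, limma adjusted p = 1.56e-05, rescaled 0.34). SSR4, the delta subunit and the most abundant of the 34 transcripts in every library, was at 791 and 744 TPM in shGLUD1, against 1171 and 1108 TPM in shNT, and fell by 0.57 (SE 0.09, limma adjusted p = 0.000256, rescaled -1.33). SSR2, the beta subunit, was at 419.8 and 413 TPM in shGLUD1 and 445 and 408 TPM in shNT and was not called (-0.03, limma adjusted p = 0.761), while its rescaled value of -0.79 was called lower. IDH3G overlaps SSR4 on the opposite strand, at 83.5 TPM in shGLUD1 and 80.8 TPM in shNT. SSR3, with 185 residues, is thus a small subunit that rose, and it was not called after removal of length and GC trends (limma adjusted p = 0.114).

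**Figure D2:**
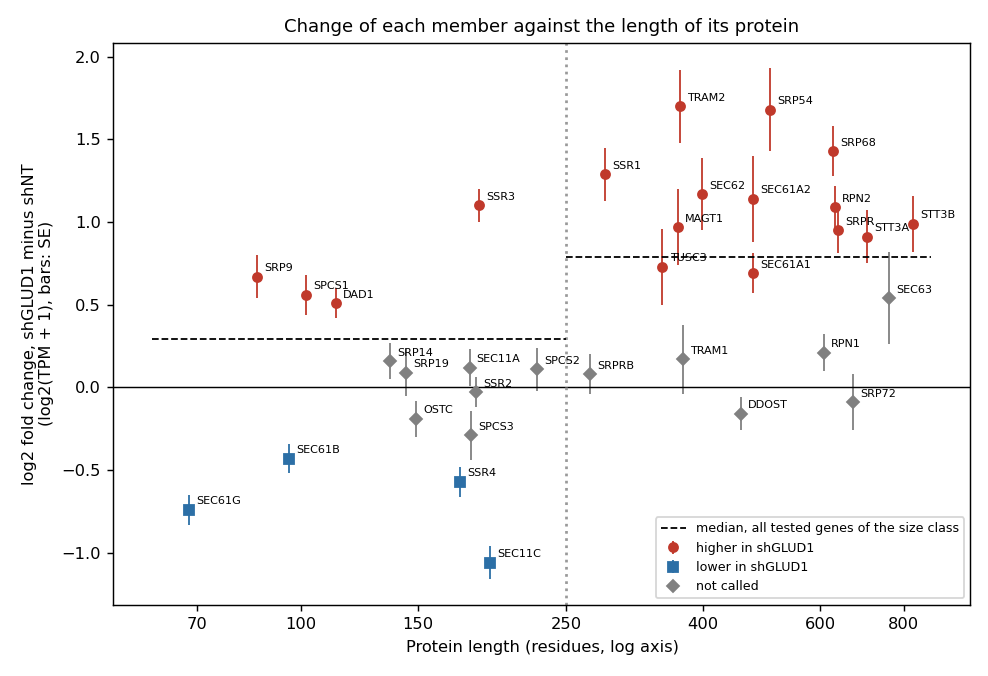
Log2 fold change of each member (shGLUD1 minus shNT, log2(TPM + 1), bars are the SE) against the length of its protein in residues (log axis); the dotted line is the limit of 250 residues and dashed lines are the medians of all tested genes of each size class, 0.29 and 0.79. No large member was called lower, and the 4 called lower had 68 to 192 residues.

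The signal peptidase is made of small subunits alone. SEC11A and SEC11C are alternative catalytic subunits. SEC11C was at 95.5 and 106 TPM in shGLUD1, against 202 and 218 TPM in shNT. SEC11C fell by 1.06 (SE 0.10, limma adjusted p = 2.18e-05, rescaled -1.81), the largest decrease among the 34 genes. SEC11A was at 131 and 156 TPM in shGLUD1 and 132.5 and 131 TPM in shNT and was not called (0.12, limma adjusted p = 0.369, rescaled -0.64). The accessory subunit SPCS1 rose, at 179 and 209 TPM in shGLUD1 and 141 and 120.5 TPM in shNT (0.56, limma adjusted p = 0.00176, rescaled -0.19). GLT8D1 overlaps SPCS1 on the opposite strand, at 39.1 TPM in shGLUD1 and 9.36 TPM in shNT. SPCS2, at 39.1 and 43.1 TPM in shGLUD1 and 38.9 and 36.9 TPM in shNT, and SPCS3, at 31.1 and 33.4 TPM in shGLUD1 and 34.9 and 45.1 TPM in shNT, were not called (0.11 and -0.29, rescaled -0.63 and -1.03). After rescaling 4 of the 5 were called lower, all but SPCS1, beside 49.8% of all tested genes of small proteins and 27.9% of all genes.

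In OST the catalytic subunits rose. STT3A was at 53.7 and 76.8 TPM in shGLUD1, against 35.2 and 32.2 TPM in shNT, and STT3B at 26.2 and 32.2 TPM in shGLUD1, against 15.4 and 12.9 TPM in shNT. Neither gene had overlapping groups. The log2 fold changes were 0.91 for STT3A (SE 0.16, limma adjusted p = 0.00074, rescaled 0.17) and 0.99 for STT3B (SE 0.17, limma adjusted p = 0.000493, rescaled 0.27), and neither rescaled value was called. CHEK1 overlaps STT3A on the same strand, at 11.2 TPM in shGLUD1 and 3.5 TPM in shNT. MAGT1 and TUSC3, the alternative oxidoreductase subunits of the STT3B form, were low. MAGT1 was at 8.35 and 12.4 TPM in shGLUD1 and 4.51 and 4.95 TPM in shNT and rose (0.97, SE 0.23, limma adjusted p = 0.00379). MAGT1 was not called after rescaling (0.30), with quantile scaling (0.19) or after removal of length and GC trends (0.10). TUSC3 was at 6.38 and 9.03 TPM in shGLUD1 and 3.96 and 4.41 TPM in shNT (0.73, SE 0.23, limma adjusted p = 0.017, rescaled 0.08). The TUSC3 call was lost without a filter on low values (limma adjusted p = 0.0743) and after rescaling (0.709). It was also lost with quantile scaling (limma adjusted p = 0.82) and after removal of length and GC trends (0.274). Omitting shGLUD1 replicate 2 (log2 fold change 0.51), shNT replicate 1 (0.67) or shNT replicate 2 (0.79) lost the call too.

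The shared OST subunits differed by gene. RPN2 (ribophorin II) was at 161 and 211 TPM in shGLUD1, against 86.4 and 86.3 TPM in shNT, and rose by 1.09 (SE 0.13, limma adjusted p = 5.94e-05, rescaled 0.33). RPN1 (ribophorin I) was at 263.1 and 316 TPM in shGLUD1 and 262.8 and 236 TPM in shNT, a narrow separation that was not called (0.21, limma adjusted p = 0.117), and was called without shGLUD1 replicate 1 (0.34, limma adjusted p = 0.0336). DDOST, the OST48 subunit, was at 282 and 320.4 TPM in shGLUD1 and 358 and 317 TPM in shNT, with overlapping groups (-0.16, limma adjusted p = 0.188). The small subunit DAD1, first known as a defender against cell death, was at 363 and 342 TPM in shGLUD1, against 237 and 257 TPM in shNT, and rose by 0.51 (SE 0.09, limma adjusted p = 0.000865, rescaled -0.25 and not called). OSTC, which ties the STT3A form to the channel, was at 88.5 and 94.9 TPM in shGLUD1, against 105 and 104 TPM in shNT, and was not called (-0.19, limma adjusted p = 0.143). RPN1, DDOST and OSTC were called lower after rescaling, at -0.55, -0.92 and -0.94.

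Large and small subunits were also compared inside each library, as the mean log2(TPM + 1) of the large minus that of the small members. In the Sec61 channel this difference was -3.43 and -3.61 in the shGLUD1 libraries, against -4.87 and -5.17 in the shNT libraries. In TRAP it was -3.79 and -3.48 in shGLUD1, against -4.80 and -4.72 in shNT. Small subunits thus had the higher levels in every library, and by less in shGLUD1. In SRP it was -2.50 and -2.33 in shGLUD1, against -3.09 and -3.13 in shNT, and in OST -1.76 and -1.39 in shGLUD1, against -2.03 and -2.14 in shNT. The groups did not overlap in any of these 4 complexes, and shGLUD1 exceeded shNT by 1.5, 1.13, 0.70 and 0.51 log2 units, beside SDs between replicates (pooled) of 0.176, 0.159, 0.086 and 0.19. After rescaling these shifts were 1.59, 1.16, 0.75 and 0.55. A factor per library cancels in a difference within a library, except through the added 1 TPM. The rescaled shifts are therefore no separate check. The large class of TRAP was 1 gene, SSR1 (log2 fold change 1.29), and the small subunit SSR3 also rose (1.10). In the Sec61 channel 1 of the 2 large genes was SEC61A2, whose level is uncertain. At a mean of at least 5 TPM, which drops SEC61A2, the Sec61 shift was 1.28. The OST shift was 0.33 without shGLUD1 replicate 2 and 0.70 without shGLUD1 replicate 1. An exact permutation test of 2 against 2 libraries cannot give a p below 0.333, so none was run.

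The same quantity moved over the transcriptome. Over all members the difference was -2.37 and -2.13 in shGLUD1 and -3.03 and -3.10 in shNT, a shift of 0.81, and over all 8300 large and 2440 small proteins it was -1.55 and -1.43 in shGLUD1 and -1.95 and -1.94 in shNT, a shift of 0.46. With length and GC trends removed the shifts were 0.43 for all members and 0.17 for all genes, and 0.87, 0.70, 0.39 and -0.03 for Sec61, TRAP, SRP and OST. The shift in OST was thus no longer seen. Across the 34 members the log2 fold change followed protein length with a Spearman rho of 0.50 and transcript length with 0.48, beside 0.35 and 0.36 across the 10740 tested genes with a coding length. It ran against the shNT level with a rho of -0.72 across members and -0.41 across those genes; the shNT level is part of the fold change, and genes of 1 library are not independent.

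**Figure D3:**
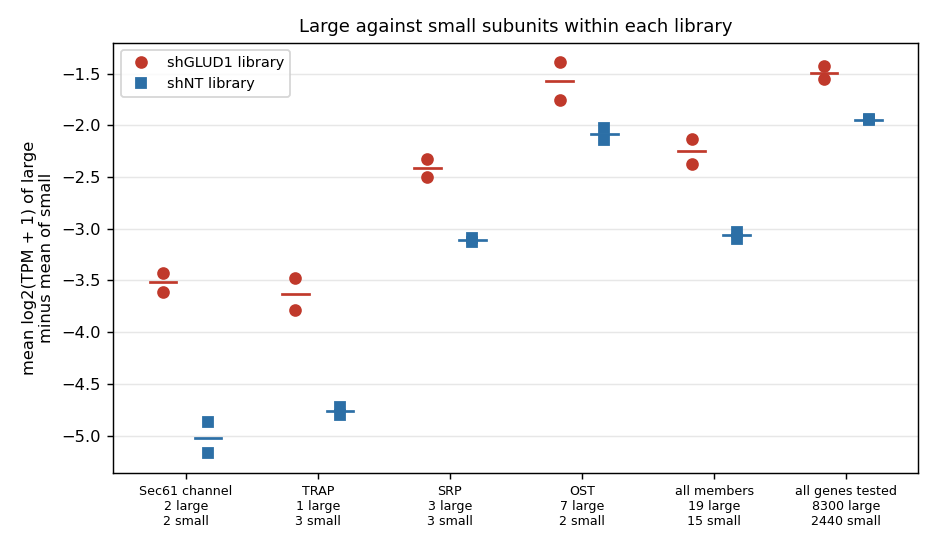
Mean log2(TPM + 1) of large members minus that of small members in each library, for the 4 complexes with both classes, for all members and for all genes tested; circles are shGLUD1 libraries, squares shNT libraries and bars the group means. Both shGLUD1 libraries lie above both shNT libraries in all 6 columns.

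In summed TPM large subunits were higher and small subunits lower in both shGLUD1 libraries. Large members summed to 1231 and 1515 TPM in shGLUD1, against 1082 and 993 TPM in shNT, and small members to 3871 and 3962 TPM in shGLUD1, against 4384 and 4507 TPM in shNT. All 34 held 0.510% and 0.548% of TPM in shGLUD1 and 0.547% and 0.55% in shNT. Summed levels were lower in both shGLUD1 libraries for Sec61 and TRAP (1456 and 1409 TPM in shGLUD1, 1723 and 1635 TPM in shNT) and higher in both for SRP and OST (1252 and 1414 TPM in shGLUD1, 1108 and 1054 TPM in shNT for OST). The ratio of group means was 1.32 for large members, 1.19 for SRP and 1.23 for OST. Each is a smaller rise than the median of 0.63 log2 units over all genes tested. The sums were not rescaled, so these directions are given on TPM only.

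Paralogous members took different shares of their pair. SEC11C made up 42.1% and 40.4% of the summed SEC11A and SEC11C level in shGLUD1, against 60.4% and 62.4% in shNT. The transcript with the higher TPM in this pair was thus SEC11A in shGLUD1 and SEC11C in shNT. Protein levels were not measured. TRAM2 made up 24.8% and 19.7% of the TRAM pair in shGLUD1, against 8.12% and 6.82% in shNT. STT3B took 32.8% and 29.5% of the STT3 pair in shGLUD1 and 30.4% and 28.6% in shNT, and these groups overlapped. MAGT1 took 56.7% and 57.9% of its pair with TUSC3 in shGLUD1 and 53.2% and 52.9% in shNT. SEC61A2 stayed a minor share of the alpha subunits, at 5.08% and 2.83% in shGLUD1 and 2.52% and 2.04% in shNT. No test was run on these shares.

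**Figure D4:**
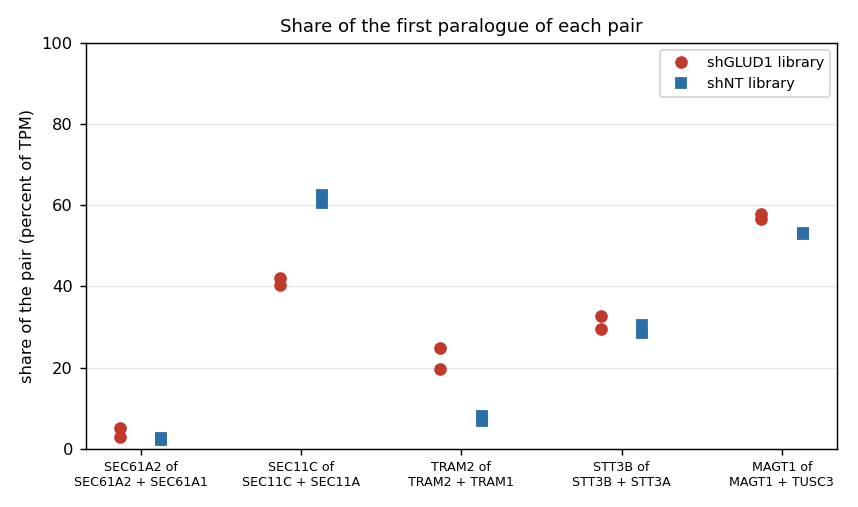
Share of the first-named paralogue in the summed TPM of its pair (percent) in each library; circles are shGLUD1 and squares shNT libraries. The SEC11C share lies at 40.4% and 42.1% in shGLUD1 and at 60.4% and 62.4% in shNT, while the STT3B shares overlap.

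Genes that work beside the members were read from lists chosen with earlier results known. They covered other OST subunits with an associated lectin, and dolichol-linked oligosaccharide assembly. Further lists held, among others, the ER membrane protein complex (EMC) and the GET pathway of tail-anchored proteins. Over 8 such lists 28 of 63 tested genes rose and 9 fell in the limma test, beside 56.7% higher and 7.77% lower among all genes, with a median log2 fold change of 0.31 beside 0.63 for all genes. After rescaling 5 were higher and 32 lower, beside 23.2% and 27.9% of all genes, and the counts of each list below are to be read against the same shares. Of 4 further genes listed with OST, MLEC (malectin, an associated lectin of the ER) rose (0.75, rescaled 0.00). The subunit KRTCAP2 rose (0.26, rescaled -0.50), TMEM258 fell (-0.27, rescaled -1.03) and the very small OST4 was not called. TMEM258 was at 328 and 314 TPM in shGLUD1 and 387 and 386 TPM in shNT, so its groups did not overlap. The MLEC call was lost without a filter on low values (limma adjusted p = 0.0524), after rescaling (0.997) and with quantile scaling (0.0841). After removal of length and GC trends MLEC lay at -0.20 and was not called (limma adjusted p = 0.175). The KRTCAP2 and TMEM258 calls were lost without a variance trend (limma adjusted p = 0.171 and 0.153), and also without shGLUD1 replicate 2 (0.0632 and 0.0543), shNT replicate 1 (0.124 and 0.131) or shNT replicate 2 (0.188 and 0.126). The KRTCAP2 call was also lost without ribosomal protein genes (limma adjusted p = 0.501) and with quantile scaling (0.14).

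The oligosaccharide that OST transfers is built on dolichol by the ALG enzymes. Of 22 tested genes of this list 9 rose and 2 fell, and 1 was higher and 11 lower after rescaling. DOLK, the dolichol kinase, was at 17.5 and 18.4 TPM in shGLUD1, against 6.59 and 6.17 TPM in shNT (1.36, rescaled 0.67). ALG8, a glucosyltransferase, and ALG2, a mannosyltransferase, rose by 1.04 each, with rescaled values of 0.36 and 0.33 that were not called. Of 10 EMC genes, which insert membrane proteins beside Sec61, 5 rose and none fell (1 higher and 4 lower after rescaling). MMGT1 lay at 1.22 (rescaled 0.69), EMC3 at 0.70 and EMC8 at 0.67 (rescaled -0.06 each). The MMGT1 call was lost with quantile scaling (limma adjusted p = 0.0578) and after removal of length and GC trends (0.112). Of 7 GET genes 2 rose, WRB (1.43, rescaled 0.74) and UBL4A (0.66, rescaled -0.09), and 1 fell. That gene was ASNA1, the targeting ATPase of the pathway, at 308 and 275 TPM in shGLUD1 and 503 and 511 TPM in shNT (-0.80, rescaled -1.56); 1 GET gene was higher and 4 were lower after rescaling.

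**Figure D5:**
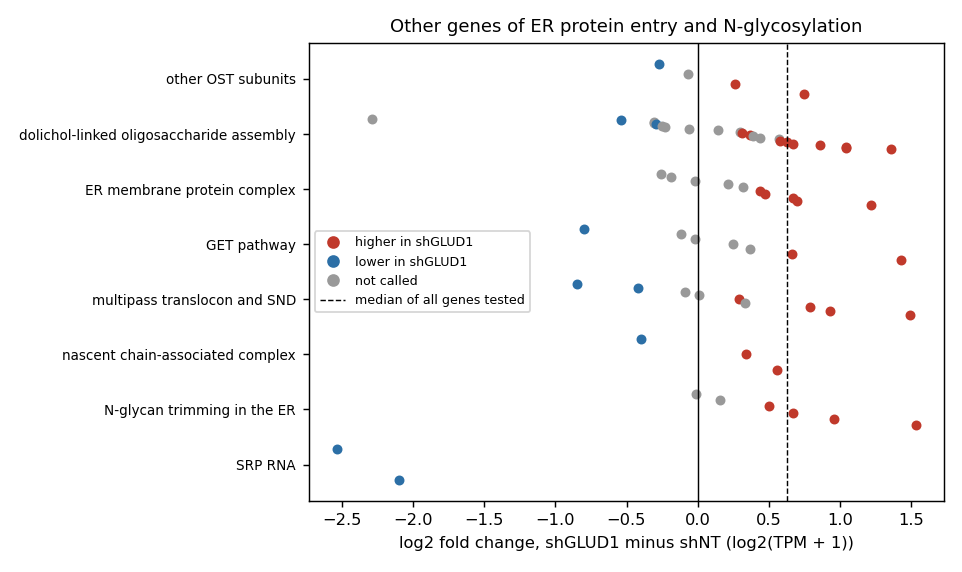
Log2 fold change (shGLUD1 minus shNT, log2(TPM + 1)) of every tested gene of the 8 lists, 1 point a gene, red for higher, blue for lower and grey for not called; the dashed line is the median of all genes tested, 0.63. The SRP RNA genes RN7SL1 and RN7SL2 lie at -2.53 and -2.10, and the grey point at -2.29 is ALG14, which was listed at 46.3 TPM in shNT replicate 1 and at most 1.6 TPM elsewhere.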

How the data were processed

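RNA was sequenced from 786-0 cells, 2 libraries with shGLUD1 and 2 with shNT, grouped by the sample titles, with TruSeq V2 libraries per the labels' protocols. The authors deposited 1 table of TPM per gene and library, to 2 decimals, with each column summing to 1000000. Bowtie 0.12.2 and, as genome builds, mm8 and hg38 are named in the submitters' processing notes, with no role stated. The quantifier, the annotation and the strand setting are not given. TPM keep no read totals, so depth is unknown and no counting interval is given.

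The 12524 genes whose mean reached 1 TPM were compared as log2(TPM + 1) with limma 3.58.1 in R 4.3.3 (variance trend, group as the only term, two-sided, Benjamini-Hochberg over all genes tested). With 2 libraries a group, the spread was moderated over genes (prior degrees of freedom 8.8, median). Fold changes are understated for low genes. Median-ratio factors were 0.29 and 0.50 (log2) for shGLUD1 and -0.38 and -0.37 for shNT. Protein and transcript lengths came from the principal coding transcript in GENCODE release 29 (GRCh38), matched by identifier for 52338 genes; 97.9% of tested genes had a transcript length. Python 3.11.15 with pandas 2.3.3 was used for tables. In data simulated for this comparison (12524 genes, independent noise), 481 of 483 genes changed 2-fold on TPM + 1 were recovered over all runs. There were 8 to 15 false calls a run. The noise was modelled on the shNT pair alone, and only a few genes above a low level were changed, up and down alike. In the real data 64.5% of genes were called, 56.7% higher and 7.77% lower. The simulation therefore does not give the error rate of the calls reported here.

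All members are named, and of each other list up to 3 called genes with the largest change; OST4, ALG14 and the overlapping genes were named after their values were seen. The members and lists were chosen with earlier results of these data known. Alternatives were a pseudocount of 0.1 TPM, no filter or a higher filter (mean of 5 TPM), scaling by median ratio or quantiles, no variance trend, a replicate block, each library left out, removal of length and GC trends, protein-coding genes only, no ribosomal protein genes, and a limit of 200 residues.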

Additional observations from a re-analysis of the deposited data

How the results depend on the processing

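Genes called numbered 8078, and 8456 with a replicate block, which called 22 members in place of 21; same-numbered libraries did not deviate together (correlation of 0.03933), so the numbers were not taken as pairs. The block called SEC63 (limma adjusted p = 0.0428) and lost KRTCAP2 (0.0525). Members called numbered 19 to 24 over all settings, while the direction depended on the scale. With length and GC trends removed 13 small members were called, in place of 8. The median log2 fold change of small members was -0.66 after rescaling, -0.34 after quantile normalization, -0.42 with length and GC trends removed, -0.10 without ribosomal protein genes, and -0.02 to 0.18 with each library left out; that of large members was 0.21, 0.41 and 0.10 under the first 3, and 0.71 to 1.06 with each library left out. The large-minus-small shift under quantile normalization was 1.03 for Sec61, 0.56 for TRAP, 0.34 for SRP, 0.27 for OST and 0.48 for all members. With length and GC trends removed these were 0.87, 0.70, 0.39, -0.03 and 0.43. It was 1.28 for Sec61 at a mean of at least 5 TPM, which drops SEC61A2, and 0.80 for SRP with a pseudocount of 0.1 TPM. GLUD1 was called lower after rescaling (-0.83), quantile normalization (-0.75) and removal of length and GC trends (-0.97), and lay between -0.37 and 0.15 over the fits that omit a library, positive without shGLUD1 replicate 1.

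Single genes changed sign as follows (log2). After rescaling the values were SEC61A1 -0.06, SEC63 -0.08, SRP9 -0.08, SRP14 -0.60, SRP19 -0.66, SRPRB -0.67, SPCS1 -0.19, SPCS2 -0.63, SEC11A -0.64, TRAM1 -0.57, RPN1 -0.55, DAD1 -0.25, KRTCAP2 -0.50, EMC3 -0.06, EMC8 -0.06, UBL4A -0.09, BTF3 -0.20, NACA -0.42, GANAB -0.09. With length and GC trends removed they were SEC61A1 -0.10, SEC63 -0.30, SRP14 -0.14, SRP19 -0.69, SRPRB -0.74, SPCS2 -0.57, SEC11A -0.40, TRAM1 -0.44, RPN1 -0.47, STT3A -0.02, MLEC -0.20, EMC3 -0.12, NACA -0.46, GANAB -0.12. After quantile normalization they were SEC63 -0.22, SRP19 -0.34, SRPRB -0.29, SPCS2 -0.39, SEC11A -0.10, TRAM1 -0.31, TUSC3 -0.05. Without ribosomal protein genes they were SRP14 -0.03, SRP19 -0.10, SRPRB -0.11, SPCS2 -0.07, SEC11A -0.07, TRAM1 -0.01. With each library left out, 6 members changed sign, over these ranges: SSR2 -0.09 to 0.03 (changed without shNT replicate 1), SRP19 -0.08 to 0.26 (changed without shGLUD1 replicate 2), SRP72 -0.34 to 0.15 (changed without shGLUD1 replicate 1), SRPRB -0.01 to 0.16 (changed without shGLUD1 replicate 2), SEC11A -0.01 to 0.24 (changed without shGLUD1 replicate 2), TRAM1 -0.23 to 0.58 (changed without shGLUD1 replicate 2). The cause of these changes was not tested beyond the construction of each setting. Depth is unknown, so low genes such as SEC61A2, SEC63 and TUSC3 carry an unknown counting error.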

Other observations

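Of 9 genes of the multipass translocon and the SND route, 4 rose and 2 fell (1 higher and 6 lower after rescaling), beside 56.7% higher and 7.77% lower of all genes tested (23.2% and 27.9% after rescaling). CCDC47, a subunit of the multipass translocon, was at 14.7 and 21.6 TPM in shGLUD1, against 5.49 and 5.90 TPM in shNT (log2 fold change 1.49, rescaled 0.80). TMEM208, of the SRP-independent SND route, was at 252 and 232 TPM in shGLUD1, against 457 and 419.7 TPM in shNT (-0.85, rescaled -1.61). NOMO2 rose by 0.93 (rescaled 0.18 and not called), and its near-identical copies make its level uncertain.

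Of 6 genes of N-glycan trimming in the ER, 4 rose and none fell (1 higher and 1 lower after rescaling). UGGT1, the folding sensor that reglucosylates unfolded glycoproteins, was at 5.17 and 8.13 TPM in shGLUD1 and 2.32 and 1.04 TPM in shNT (1.53, rescaled 0.96). The UGGT1 call was lost with quantile scaling (limma adjusted p = 0.0523) and after removal of length and GC trends (0.123). MOGS and GANAB, the glucosidases that trim the transferred glycan, rose by 0.96 and 0.67 (rescaled 0.23 and -0.09, neither called). In the nascent chain-associated complex, which binds chains on the ribosome ahead of SRP, BTF3 and NACA rose (0.56 and 0.34, rescaled -0.20 and -0.42) and BTF3L4 fell (-0.40, rescaled -1.15). The BTF3L4 call was lost by a fit with no variance trend (limma adjusted p = 0.0642) and on omitting shNT replicate 2 (0.121). The NACA call was lost without a filter on low values (limma adjusted p = 0.222), by a fit with no variance trend (0.174), in the absence of ribosomal protein genes (0.353), and on omitting shGLUD1 replicate 1 (0.139), shGLUD1 replicate 2 (0.231) or shNT replicate 1 (0.509).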
